A study of Drosophila melanogaster with 22 samples.

Results

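The comparison covers the 2 arrays labelled as Ski6 depletion and the 2 arrays of the GFP control, which were chosen by their titles and make up 4 of the 22 arrays of the study. The study used S2 cells, an established Drosophila melanogaster line of macrophage-like blood cell origin, and set out to find the messenger RNAs that subunits of the RNA exosome act on. All cells shared the same handling: growth in HyQ CCM3 medium at 27 degrees, double-stranded RNA (dsRNA) at 30 µg/ml on days 0, 1 and 3, and lysis on day 5. The Ski6 group received dsRNA against Ski6, and the control group received dsRNA against GFP, a jellyfish protein with no counterpart in the fly. The other 18 arrays came from 8 further depletions: Csl4, Dis3, Mtr3, Rrp4 (4 arrays), Rrp40, Rrp46, Rrp47 and Rrp6. Biotin-labelled RNA from 6 µg of total RNA was hybridised to Affymetrix arrays, and each value below is a log2 signal after the 22 arrays were brought to one distribution. Titles mark the 2 Ski6 arrays as biological replicates, whereas the GFP titles give a number alone, so the spread between arrays may be partly technical. The p-values rest on a spread pooled within all 10 groups of the 22 arrays, not on that of the Ski6 and GFP arrays alone.

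The exosome is a barrel of protein subunits that removes nucleotides from the 3′ ends of RNA in both nucleus and cytoplasm. Ski6, known as Rrp41 in other species, is one of the ring subunits that build the barrel, together with Mtr3, Rrp46, Rrp42 and Rrp45, while Csl4, Rrp4 and Rrp40 form the cap. In animals the ring is thought to hold no active site of its own, and the RNA is cut by Dis3 and Rrp6, with Rrp47 as a partner of Rrp6.

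The arrays differed in ways that accompany the comparison. The Ski6 arrays were brighter as deposited, with trimmed mean intensities of 330 and 327 against 176 and 164 in GFP. The control probe set for 18S ribosomal RNA lay 8.44 and 8.35 above the array median on the log2 scale in the Ski6 arrays, and 2.91 and 4.76 above it in the GFP arrays. Over the 22 arrays this control ranged from 1.92 to 8.85. The signal of a control's 3′ probe set minus that of its 5′ probe set is a measure of RNA length. For the GAPDH control it was 0.24 and -0.16 in the Ski6 arrays and 0.95 and 1.10 in GFP. The Act5C control went the other way, at 1.02 and 1.13 in Ski6 and 0.71 and 0.54 in GFP. The part of these differences in the results below was not tested. The median absolute log2 difference between the 2 arrays of a group was 0.153 for Ski6 and 0.305 for GFP.

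Some blood-cell genes were bright in every one of the 4 arrays, and others were dim in the control. Of 8 blood cell markers on the array, 6 were tested. Among them srp and ush, which encode blood cell transcription factors, stood at percentiles 95.8 and 90.9 of all probe sets in GFP and 96.1 and 93.5 in Ski6. Hml stood at 98.9 in GFP and 94.4 in Ski6, and eater at 58.4 and 73.7. He stood at 41.4 in GFP and 51.8 in Ski6, and Pxn at 27.6 and 72.3. The summed signal of the blood markers was lower in both Ski6 arrays, at 12.37 and 12.63 against 12.78 and 13.65 in GFP on the log2 scale. Hml, at 12.10 and 13.14, was the brightest of these markers in GFP, and it read 10.48 and 10.81 in Ski6. NimC1, a phagocyte receptor, had log2 signals of 4.10 and 4.09 in GFP and 3.97 and 3.62 in Ski6 and was too dim to be tested, as was Sr-CI. Summed neuronal markers overlapped between the groups, at 7.97 and 8.37 in Ski6 and 8.14 and 8.98 in GFP. Summed muscle markers and summed fat body and gut markers were dim in all 4 arrays, and lower in both Ski6 arrays. The muscle sums were 5.03 and 5.72 in Ski6 and 6.31 and 6.01 in GFP. Those of fat body and gut were 6.23 and 6.01 in Ski6 and 6.61 and 6.47 in GFP. Summed germline markers were higher in the Ski6 arrays, at 8.74 and 8.49 against 7.22 and 7.34. Of the 4 on the array, vas did not take part in this. It read 4.15 and 4.57 in Ski6 and 4.22 and 4.79 in GFP, and was too dim to be tested. A change in the makeup of a culture and a change in RNA per cell cannot be told apart in such bulk samples.

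The signal of the Ski6 gene itself was higher, not lower, in the arrays labelled Ski6. Its single probe set read 10.06 and 10.83 in the Ski6 arrays and 8.10 and 7.99 in GFP. The Ski6 arrays were above every one of the other 20 arrays, which ranged from 7.11 to 9.06. The difference from GFP was 2.40 ± 0.32 (log2 ± standard error, n = 2 and 2, limma adjusted p = 3.1e-05), or 5.28-fold. The labels do not say where the Ski6 dsRNA lies in the gene, and how much of the signal came from the added dsRNA was not tested. The depletion therefore could not be checked from the target's own signal, and every direction given here is that of the arrays labelled Ski6.

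**Figure D1:**
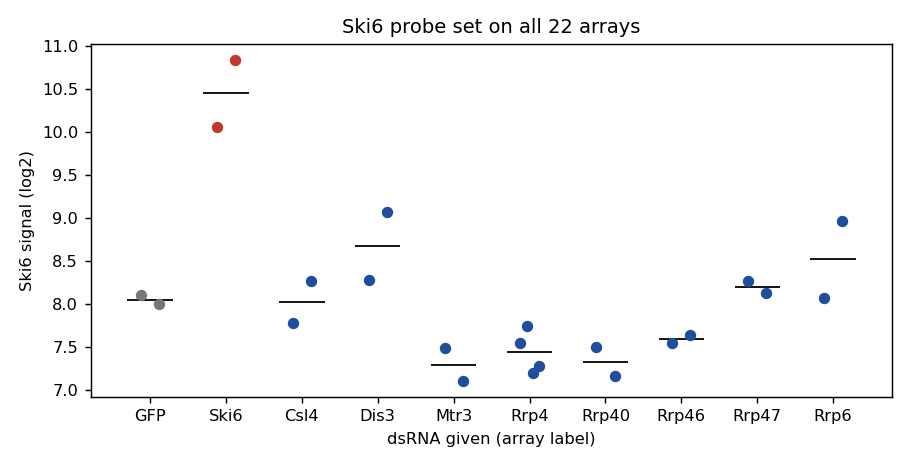
Log2 signal of the Ski6 probe set on each of the 22 arrays, by the dsRNA named in the array label (GFP grey, Ski6 red, other depletions blue); points are arrays and black lines are group means. The 2 Ski6 arrays, at 10.06 and 10.83, lie above the other 20 arrays, whose highest value is 9.06.

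No other measured subunit of the exosome passed the test. Among the ring genes, Mtr3 differed from GFP by 0.15 ± 0.49, Rrp46 by 0.34 ± 0.24, Rrp42 by -0.46 ± 0.32 and Rrp45 by -0.16 ± 0.20. Among the cap genes, Csl4 differed by -0.09 ± 0.26, Rrp4 by -0.30 ± 0.78 and Rrp40 by -0.56 ± 0.23. The nucleases Dis3 and Rrp6 and the cofactor Rrp47 differed by 0.12 ± 0.32, -0.09 ± 0.27 and 0.00 ± 0.23. The lowest adjusted p among these 10 genes was 0.099, for Rrp40 (limma).

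Of 11 measured exosome cofactors, 2 rose and none fell, against 11.6% and 11.8% of all 7222 genes tested. Trf4-1, a noncanonical poly(A) polymerase of the type that tags RNA for the nuclear exosome, read 4.31 and 3.54 in GFP and 5.53 and 5.70 in Ski6, a rise of 1.69 ± 0.55 (limma adjusted p = 0.034). Cbp80, the large subunit of the nuclear cap-binding complex, rose by 0.61 ± 0.16 (limma adjusted p = 0.0095) from 8.31 and 8.43 to 9.02 and 8.94. Neither call was held by every subset of arrays: the adjusted p of Trf4-1 was 0.11 to 0.18 without Ski6 1, Ski6 2 or GFP 2, and that of Cbp80 was 0.075 without Ski6 1 or GFP 1. The helicases Mtr4 and tst (the Ski2 homolog), which feed RNA to the nuclear and the cytoplasmic exosome, differed by 0.06 ± 0.16 and 0.26 ± 0.39. Of 21 other genes of messenger RNA decay, 3 rose and none fell: Not3 by 1.10 ± 0.20, Rga by 0.66 ± 0.19 and PAN2 by 0.50 ± 0.16, all of them members of deadenylase complexes. Not3 read 8.84 and 9.22 in GFP and 10.15 and 10.12 in Ski6. The calls of Rga (adjusted p 0.052 to 0.15) and PAN2 (0.11 to 0.17) were lost without either Ski6 array or without GFP 1.

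Across the array, 2135 of 9385 tested probe sets (22.7%) differed between the Ski6 and the GFP arrays at a limma adjusted p under 0.05. Of these, 1126 (12%) were higher and 1009 (10.8%) lower in the Ski6 arrays. The changes upward were larger: 648 of the higher and 374 of the lower probe sets changed at least 2-fold. The median change over all tested probe sets was -0.04. Counted as genes, by the brightest probe set of each, 835 were higher and 855 lower of 7222 (23.4% in all). Genes called higher were dimmer than average in the control, with a median GFP signal of 7.86, and genes called lower were brighter, at 9.45, against 8.31 for all genes. The filter bears on this contrast and on the larger changes upward. It used the mean over all 22 arrays, 20 of them depletions, so genes bright in GFP alone could be dropped. Of the 835 higher genes, 114 had a GFP mean below the filter level, and of the 855 lower genes, 23 had a Ski6 mean below it. Some gene lists also hold higher genes with a GFP mean below that level, and their counts of rises carry the same limit.

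**Figure D2:**
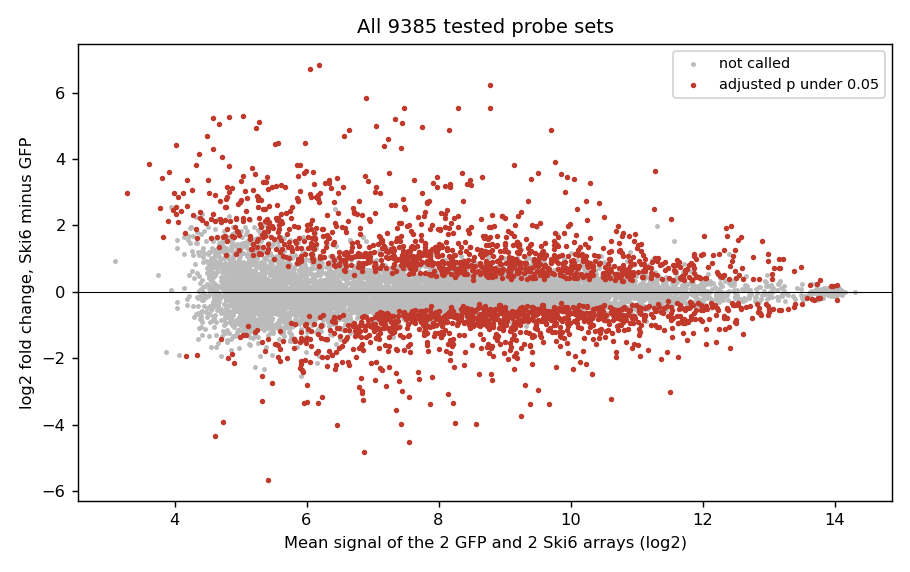
Log2 fold change of the Ski6 against the GFP arrays (y) for the 9385 tested probe sets, against their mean log2 signal on the 4 arrays (x); red points passed a limma adjusted p under 0.05 and grey points did not. Changes upward reach 6.84 and changes downward -5.66, and 1126 probe sets are called higher and 1009 lower.

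The genes furthest above the control were nearly silent or dim there and were bright in the Ski6 arrays. Those with a GFP mean below the filter level of 4.67 entered the test only through the depletion arrays. CG4250 read 2.42 and 3.11 in GFP and 9.54 and 9.67 in Ski6, a difference of 6.84 ± 0.27 (114-fold, limma adjusted p = 1.6e-11). CG15695 read 1.74 and 3.65 in GFP and 9.63 and 9.18 in Ski6, a difference of 6.71 ± 0.48. CG18557 read 6.04 and 5.29 in GFP and 11.89 in both Ski6 arrays, a difference of 6.22 ± 0.27. The groups lay far apart in each of these 3 genes. SerT, the plasma-membrane serotonin transporter, is a nervous system gene that went from 5.46 and 5.57 in GFP to 10.90 and 11.23 in Ski6. Its difference of 5.55 ± 0.15 (46.8-fold) had the lowest adjusted p of the named genes, 1.0e-13 (limma). It was the 1 gene called of 5 measured neuronal genes, whose median change was 0.01.

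Several others of the 15 highest genes encode secreted or signalling proteins. Nazo, an antiviral effector that acts downstream of Sting in flies, read 2.84 and 6.55 in GFP and 10.46 and 10.04 in Ski6, so that its control arrays themselves differed widely. It rose by 5.55 ± 0.68 (limma adjusted p = 1.3e-05). Glt, the basement-membrane glycoprotein glutactin, read 5.29 and 6.73 in GFP and 11.36 and 11.72 in Ski6, a rise of 5.52 ± 0.33. Both Ski6 arrays were above both GFP arrays in each of them, as the rule for naming these genes required; over all genes the groups were apart in this way in 64.2%, upward in 29% and downward in 35.2%. The fibroblast growth factor receptor heartless (htl) rose by 4.99 ± 0.32, from 4.15 and 4.96 to 9.45 and 9.65. The secreted growth factor miple2, of the midkine family, rose by 4.86 ± 0.30, from 5.52 and 5.92 to 10.56 and 10.62. Protein kinase D (PKD) rose by 5.23 ± 0.37 from 1.86 and 2.08, close to the lowest signals on the array, to 7.32 and 7.09. The other 6 of the 15 were CG4793 (5.83 ± 0.74), CG5381 (5.31 ± 0.35), CG3117 (5.26 ± 0.38), Erasp (5.06 ± 0.54), CG33462 (4.95 ± 0.38) and CG12470 (4.70 ± 0.34). These rises were not particular to Ski6. Over the 15 genes the mean of the other 8 depletions lay 2.53 (miple2) to 6.09 (CG4250) above the same GFP arrays, though not every single depletion did.

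The genes furthest below the control were dim or moderate in the Ski6 arrays, and their level in the control varied. CG10163 read 9.17 and 7.32 in GFP and 2.47 and 2.70 in Ski6, a difference of -5.66 ± 0.55 (limma adjusted p = 9.6e-07). The cuticle protein gene Cpr64Ac fell by 4.83 ± 0.79, from 9.18 and 9.39 to 4.05 and 4.87. Gooseberry (gsb), a paired-box transcription factor of the segment polarity class, fell by 4.52 ± 0.22, from 9.52 and 10.12 to 5.28 and 5.31. In these 3 genes both Ski6 arrays lay far below the lower GFP array. Pepck2, an enzyme of gluconeogenesis, read 7.56 and 5.99 in GFP and 1.69 and 3.19 in Ski6, where the lower value is the floor set on the signals. Ance, a secreted peptidase related to angiotensin-converting enzyme, fell by 3.94 ± 0.27, from 10.05 and 10.40 to 6.16 and 6.40. Ringer, a microtubule-binding protein, fell by 3.72 ± 0.29, from 10.95 and 11.26 to 7.49 and 7.28. The serpin Spn28Dc (-4.02 ± 0.49), the sulfotransferase St3 (-3.91 ± 0.73), the mucin-type glycosyltransferase Pgant2 (-3.55 ± 0.46) and the juvenile hormone binding protein Jhbp1 (-3.35 ± 0.18) were also among the 15. Of the 2 tested probe sets of Pgant2 only 1 was called, and the other differed by -1.08. The remaining 5 were CG12520, CG5697, CG3348, CG32206 and CG15096, with differences from -3.99 to -3.33. Over the 15 lower genes the mean of the other 8 depletions also differed from the same GFP arrays, by -1.34 (St3) to -4.02 (Cpr64Ac). All 30 genes of the 2 sets kept their call under every alternative processing in which they were tested, leaving out any 1 of the 4 arrays included.

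**Figure D3:**
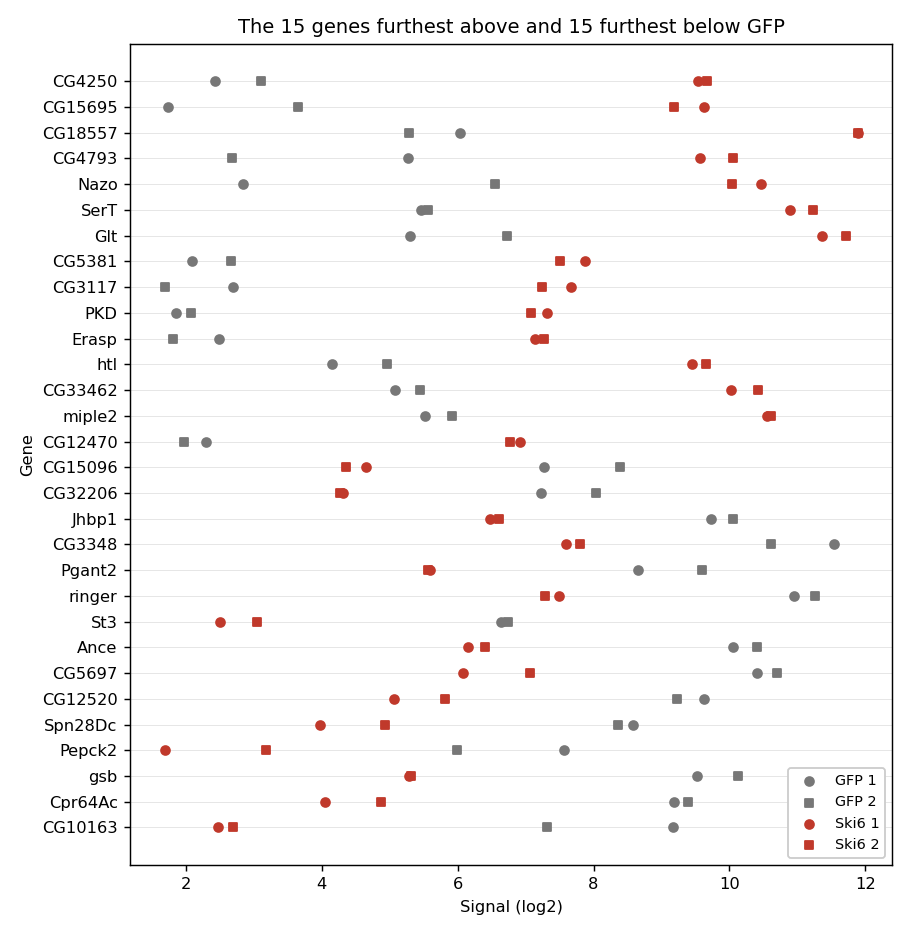
Log2 signal (x) of the 15 genes furthest above and the 15 furthest below GFP (y) on the 2 GFP arrays (grey) and the 2 Ski6 arrays (red), with circles for array 1 and squares for array 2. No red point lies between the grey points of a gene, and the gap is widest for CG4250, from 3.11 to 9.54.

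Genes of innate immunity were higher in the Ski6 arrays. All 6 measured antimicrobial peptide genes rose, against 11.6% of all genes. Their median change was 2.26, against -0.05 over all genes. Metchnikowin (Mtk) read 6.53 and 6.25 in GFP and 9.96 and 9.15 in Ski6, a rise of 3.17 ± 0.42 (limma adjusted p = 3.5e-05). Defensin (Def) read 3.90 and 2.40 in GFP and 6.33 and 5.81 in Ski6, a rise of 2.92 ± 0.59. Diptericin B (DptB) read 9.71 and 10.32 in GFP and 12.86 and 12.15 in Ski6, a rise of 2.49 ± 0.41. The groups did not overlap in any of these 3 peptides, as they did not, upward, in 29% of all genes. Attacin D (AttD) rose by 2.02 ± 0.30, drosomycin (Drs) by 1.67 ± 0.31 and cecropin B (CecB) by 1.40 ± 0.17. The other 8 of the 14 listed peptide genes were either not bright enough for the test or had no probe set with 1 symbol.

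Of 18 measured genes of the Toll and Imd signalling pathways, which sense microbes and switch on these peptides, 8 rose and none fell. The list median was 0.26, and the shares over all genes were 11.6% and 11.8%. Among the peptidoglycan recognition proteins, PGRP-LA rose by 2.13 ± 0.33, PGRP-LF by 1.94 ± 0.17 and PGRP-LB by 1.35 ± 0.25. PGRP-LF, a receptor that dampens Imd signalling, read 6.92 and 7.33 in GFP and 9.09 and 9.05 in Ski6. Pirk, another negative regulator of Imd, rose by 1.70 ± 0.23, from 8.43 and 8.17 to 9.94 and 10.05. The NF-kappaB factors Rel and dl rose by 0.98 ± 0.21 and 1.20 ± 0.20, the kinase gene IKKbeta by 0.90 ± 0.19, and cact, which encodes the inhibitor of dl, by 1.09 ± 0.23. The call of cact was lost without GFP 1 (adjusted p = 0.053, limma). Of 4 measured JAK-STAT genes, 3 rose: the transcription factor Stat92E by 1.72 ± 0.32, the stress peptide TotC by 2.47 ± 0.58 and the thioester protein Tep4 by 0.76 ± 0.21. TotC read 1.69, the floor, and 3.78 in GFP and 5.06 and 5.35 in Ski6, and its adjusted p was 0.098 without GFP 1. The adjusted p of Tep4 was 0.16 without Ski6 1 and 0.15 without GFP 1. In the list of small RNA and antiviral genes, 3 of 10 rose: Nazo, the nuclease Tudor-SN (0.85 ± 0.12) and Sting (0.65 ± 0.20), a call lost without either Ski6 array or without GFP 1.

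Genes of DNA replication were higher as a group. Of 29 measured, 14 rose and none fell, against 11.6% and 11.8% of all genes, with a median change of 0.72. PolA1, the catalytic subunit of DNA polymerase alpha, read 6.23 and 6.56 in GFP and 8.55 and 8.38 in Ski6, a rise of 2.07 ± 0.20 (limma adjusted p = 1.2e-06). PCNA, the sliding clamp, read 8.83 and 10.15 in GFP and 11.15 and 11.04 in Ski6, a rise of 1.61 ± 0.27. RnrL, the large subunit of ribonucleotide reductase, read 8.84 and 9.14 in GFP and 10.60 and 10.44 in Ski6, a rise of 1.53 ± 0.21. The 2 groups were separate for each of these genes, as they were, upward, in 29% of all genes. The helicase subunits Mcm5 and Mcm2 rose by 1.49 ± 0.30 and 1.37 ± 0.25. At the low end of those called, RfC4 (0.43 ± 0.14) and RPA1 (0.36 ± 0.12) lost their calls when any 1 array was left out. Of 18 measured genes of mitosis, 7 rose and 1 fell, with a median of 0.63. The condensin subunits SMC2 and glu rose by 1.29 ± 0.23 and 1.12 ± 0.24, the kinesin Klp61F by 0.97 ± 0.20 and the separase gene thr by 0.91 ± 0.18. Cyclin B (CycB) read 10.96 and 11.12 in GFP and 10.23 and 10.34 in Ski6, a difference of -0.76 ± 0.15, which became 0.09 with the intensities as deposited.

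Basement-membrane genes were higher in the Ski6 arrays. Of 12 measured genes of the extracellular matrix, 8 rose and 1 fell, against 11.6% and 11.8% of all genes, with a median of 1.13. Peroxidasin (Pxn), which cross-links collagen IV, read 3.37 and 3.20 in GFP and 7.84 and 7.65 in Ski6, a rise of 4.46 ± 0.28 (limma adjusted p = 6.3e-09). Perlecan (trol) read 5.36 and 5.18 in GFP and 9.55 and 9.67 in Ski6, a rise of 4.34 ± 0.27. Of the 5 tested probe sets of trol, 3 were called higher, and the range over all 5 was 0.55 to 5.21. The laminin chains LanA (1.92 ± 0.48), LanB1 (1.68 ± 0.38) and LanB2 (1.64 ± 0.27), papilin (Ppn, 1.79 ± 0.45), SPARC (0.62 ± 0.08) and collagen IV (Col4a1, 0.54 ± 0.14) also rose. Leaving out GFP 1 ended the calls of LanA (adjusted p = 0.14), LanB1 (0.079), Ppn (0.075) and Col4a1 (0.16). LanA was also lost without Ski6 2 (0.058), and Ppn and Col4a1 without Ski6 1 (0.052 and 0.091). Under median centring SPARC was at 0.28 (adjusted p = 0.16) and Col4a1 at 0.26 (0.33), and neither was called. Thrombospondin (Tsp), a matrix ligand of integrins, fell by 3.18 ± 0.49, from 7.67 and 7.97 to 4.56 and 4.73.

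The genes of the blood cell lineage did not move together. Of 12 measured, 4 rose and 2 fell, against 11.6% and 11.8% of all genes, with a median of 0.39. Besides Glt and Pxn, the phagocytic receptor eater rose by 2.35 ± 0.44, from 4.61 and 6.58 to 7.79 and 8.10, and the filamin cher by 1.16 ± 0.22. Hemolectin (Hml), a clotting factor and a standard marker of plasmatocytes, fell by 1.97 ± 0.42, from 12.10 and 13.14 to 10.48 and 10.81. The integrin subunit ItgaPS4 fell by 2.34 ± 0.54, a call lost with the intensities as deposited. Of 5 measured genes of melanization, the prophenoloxidase PPO1 rose by 3.79 ± 0.29, from 3.09 and 2.77 to 7.04 and 6.39, and yellow-f fell by 0.65 ± 0.20, a call lost without either Ski6 array or without GFP 1, and a difference that became 0.19 with the intensities as deposited.

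Several genes of the germline and of the piRNA pathway, which silences transposons in gonads, were higher in the Ski6 arrays. The germline marker vas, given above, was not among them. Of 11 measured, 6 rose and none fell, against 11.6% and 11.8% of all genes, with a median of 0.82. Of the 6, AGO3, bam and aub had GFP means of 1.69, 3.34 and 4.12, below the filter level of 4.67. A gene so dim in GFP could be tested only by being higher in the depletion arrays. How far the count, the median and the calls of these 3 genes rest on the filter was not tested. AGO3, a piRNA Argonaute, had GFP signals no higher than the floor (1.69 on both arrays) and read 5.47 and 5.62 in Ski6, so it was at least 14.4-fold higher (limma adjusted p = 7.9e-06). The germ cell differentiation gene bam read 3.69 and 2.99 in GFP and 6.62 and 6.71 in Ski6, a rise of 3.33 ± 0.43. The other piRNA Argonaute, aub, rose by 2.51 ± 0.55, from 5.20 and 3.04 to 6.92 and 6.33, and was not called without GFP 2 (adjusted p = 0.052). Control and Ski6 arrays were apart for these 3 genes, as they were, upward, in 29% of all genes. The Tudor-domain genes tud (1.50 ± 0.47) and krimp (0.82 ± 0.21) and the helicase gene armi (1.28 ± 0.31) also rose, and all 3 lost their calls without GFP 1 (adjusted p from 0.096 to 0.37). Transcripts of other tissues appeared singly: nau, the fly counterpart of the muscle regulator MyoD, rose by 4.47 ± 0.82, from 1.95 and 4.72 to 7.78 and 7.83, whereas the muscle gene Mf fell by 1.97 ± 0.56 (adjusted p from 0.06 to 0.10 with any 1 array left out), and the neuronal gene elav differed by 0.14 ± 0.23.

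Genes of sugar metabolism were lower as a group. Of 12 measured genes of glycolysis and gluconeogenesis, 10 fell and none rose, against 11.8% and 11.6% of all genes. Their median was -1.17, against -0.05 over all genes. Phosphofructokinase (Pfk), the enzyme that commits sugar to glycolysis, read 12.49 and 11.96 in GFP and 9.14 and 8.86 in Ski6, a fall of 3.22 ± 0.21 on the log2 scale (limma adjusted p = 1.3e-08). Pepck1 read 12.90 and 12.77 in GFP and 10.80 and 11.74 in Ski6, a difference of -1.57 ± 0.22. Pgi read 12.76 and 12.24 in GFP and 10.96 and 11.11 in Ski6, a difference of -1.46 ± 0.15. Each Ski6 array was below both GFP arrays in these enzymes, as it was in Pepck2 and in 35.2% of all genes. The gluconeogenic phosphatase fbp fell by 1.34 ± 0.26, Ald1 by 1.24 ± 0.20, Tpi by 1.11 ± 0.13, Gapdh1 by 0.94 ± 0.09, Eno by 0.60 ± 0.08 and Pgk by 0.54 ± 0.16. The call of Pgk was lost without Ski6 1, Ski6 2 or GFP 1 (adjusted p from 0.083 to 0.31). Hexokinase (Hex-A, -0.55 ± 0.20, adjusted p = 0.06, limma) and Pglym78 (0.19 ± 0.31) did not pass the test. With the intensities as deposited, where the median of all probe sets shifts by 1.02, Pfk stayed called, while Eno and Pgk turned to 0.11 and 0.25 and the calls of fbp, Ald1, Tpi and Gapdh1 were lost.

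**Figure D4:**
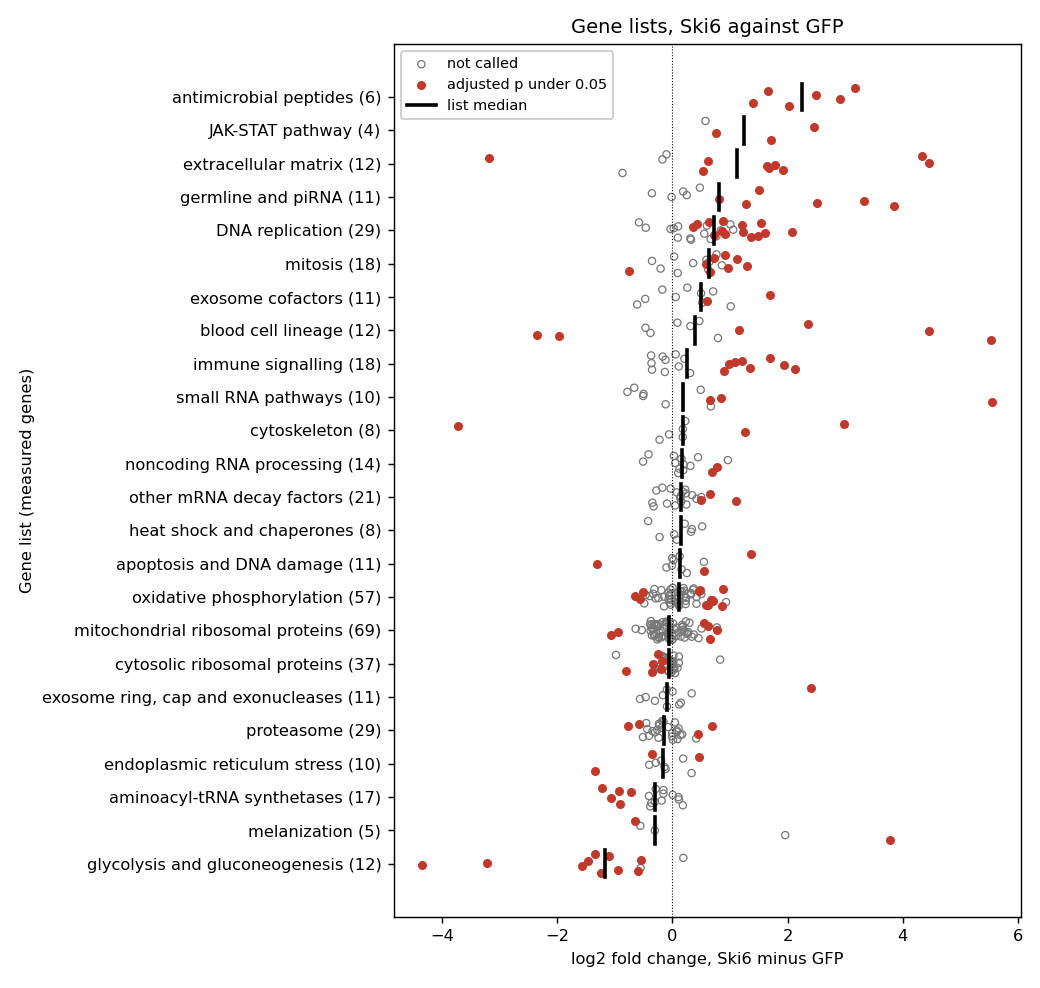
Log2 fold change of the Ski6 against the GFP arrays (x) for every measured gene of 24 gene lists (y, number measured in brackets), ordered by the list median, which is drawn as a black bar; red points passed a limma adjusted p under 0.05 and open grey points did not. The antimicrobial peptides have the highest median, 2.26, and the genes of glycolysis and gluconeogenesis the lowest, -1.17.

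Of 17 measured aminoacyl-tRNA synthetases, which load amino acids onto tRNAs, 5 fell and none rose, with a median of -0.30. Over all genes 11.8% fell and 11.6% rose. ValRS fell by 1.22 ± 0.13, from 11.29 and 11.20 to 10.01 and 10.03, HisRS by 1.07 ± 0.28, ThrRS by 0.93 ± 0.17, AsnRS by 0.92 ± 0.17 and SerRS by 0.71 ± 0.14. With the intensities as deposited none of these 5 was called and SerRS stood at 0.09. HisRS was not called without Ski6 1, Ski6 2 or GFP 1 (adjusted p from 0.054 to 0.13). In other lists of the cell's basic machinery the medians lay near that of all genes, -0.05, and the share called was below the 23.4% of all genes in each of the next 5. Of 37 measured cytosolic ribosomal protein genes, none rose and 6 fell (median -0.06), and of 69 mitochondrial ones 4 rose and 2 fell (median -0.05). Of 29 proteasome genes 2 rose and 2 fell (median -0.15), and of 57 genes of oxidative phosphorylation 9 rose and 3 fell (median 0.12). None of 8 measured heat shock and chaperone genes was called, and none had an unadjusted p under 0.05 (limma, median 0.15). Of 10 genes of endoplasmic reticulum stress 1 rose and 2 fell, of 11 genes of apoptosis and DNA damage 2 rose and 1 fell, and of 14 genes that process noncoding RNA 2 rose. Of 8 cytoskeletal genes, the fascin gene sn rose by 2.99 ± 0.48 and betaTub60D by 1.26 ± 0.17, and ringer fell.

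Few noncoding RNAs were measured. Of 23 genes whose symbol marks a noncoding RNA, 5 rose and 2 fell, against 11.6% and 11.8% of all genes. Their median change was 0.00. The 2 that fell were the 2 hairpin RNA genes, hpRNA:CR32207 and hpRNA:CR33940; hairpin RNAs are long foldback transcripts that are cut into small interfering RNAs. The first read 9.94 and 9.43 in GFP and 6.50 and 6.71 in Ski6 (-3.08 ± 0.26, limma adjusted p = 1.5e-07), and the second differed by -1.27 ± 0.31. The pseudogene 18SrRNA-Psi:CR41602, whose sequence resembles 18S ribosomal RNA, read 7.23 and 5.85 in GFP and 10.08 and 9.51 in Ski6. The 18S control given above was also higher in the Ski6 arrays. Between the GFP arrays that control went the other way, at 2.91 and 4.76, and a link was not tested. The second hairpin RNA and the pseudogene were singled out after their values were seen.

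A further question was where the Ski6 arrays stood apart from the other 8 depletions. Here the mean of the Ski6 arrays was tested against the mean of the 8 other group means, so the GFP arrays did not enter the difference. At a limma adjusted p under 0.05, 511 of 9385 probe sets (5.44%) differed, 236 higher (2.51%) and 275 lower (2.93%), and 80 of the higher and 43 of the lower differed at least 2-fold. Without Ski6 1 the count was 75 and without Ski6 2 it was 150. Of the 511, 195 were also above GFP and 222 also below it, 5 were called in opposite directions, and 89 were called only against the other depletions. As genes, 177 were higher and 238 lower, or 2.45% and 3.3% of 7222 (5.75% together).

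Apart from Ski6 itself, the genes furthest above the other depletions were CG40160, Epac, dmGlut, CG42675, dpr17, trol and miple2. Trol was 2.34 ± 0.20 above the other 8 (limma adjusted p = 3.1e-06), and read 9.55 and 9.67 in Ski6 against 4.64 to 9.33 in the other 18 depletion arrays. Miple2 was 2.33 ± 0.22 above, at 10.56 and 10.62 against 5.09 to 10.55. The neuronal surface protein dpr17 was 2.43 ± 0.25 above, at 9.96 and 10.15 against 5.37 to 10.11. In each of the 3, the highest of the other depletion arrays was an Mtr3 array. The glutamate transporter dmGlut was 2.45 ± 0.34 above the others and CG42675 was 2.44 ± 0.24 above them. The calls of CG40160 (2.49 ± 0.48) and of Epac (2.45 ± 0.64), an exchange factor for the small GTPase Rap activated by cyclic AMP, were lost without either Ski6 array (adjusted p from 0.078 to 0.36). SerT, Glt and Pxn, described above, were 1.91 ± 0.11, 1.92 ± 0.25 and 1.67 ± 0.21 above the other 8.

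The genes furthest below the other depletions rested more often on both Ski6 arrays being present. The hairpin RNA gene hpRNA:CR32207 was -1.41 ± 0.19 from the other 8 (limma adjusted p = 0.00024), at 6.50 and 6.71 against 6.94 to 9.41, and kept its call when either Ski6 array was left out. The sulfotransferase St3 (-2.57 ± 0.54), the eggshell protein gene Cp36 (-2.53 ± 0.49), the cold-induced gene Fst (-1.79 ± 0.40), the meiotic chromosome gene c(2)M (-1.30 ± 0.36) and sprt (-1.29 ± 0.26) lost their calls without either Ski6 array. Septin4 (-1.39 ± 0.27) and CG3348 (-1.31 ± 0.23) lost theirs without Ski6 1. Over these 7 genes the adjusted p after leaving out an array ran from 0.062 to 0.46 where the call was lost. Cp36 read 2.86 and 3.07 in Ski6, 3.88 to 6.12 in the other depletions, and 3.52 and 6.05 in GFP, from which it was not called (adjusted p = 0.057, limma).

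For most of these genes the Mtr3 arrays came closest to the Ski6 arrays. For 12 of the 15 genes named here besides Ski6, the Mtr3 mean was the nearest to the Ski6 mean, Rrp47 was nearest for 2 and Csl4 for 1. The rule for naming them put both Ski6 arrays beyond all 8 other group means. The nearest group is therefore the most extreme of the others. How often Mtr3 was nearest over all genes was not computed, so the count describes these genes alone. The distance to Mtr3 was 0.08 for miple2, 0.15 for dpr17 and dmGlut and 0.44 for trol. The Mtr3 arrays were also close to the Ski6 arrays in brightness, at 303 and 346, and the part of this in the likeness was not tested. In the 18S control the Mtr3 arrays stood at 7.04 and 8.64, the Rrp6 arrays at 8.09 and 8.67 and the Dis3 arrays at 8.73 and 8.85. The GAPDH 3′ minus 5′ difference was 0.71 and -0.20 in Mtr3, 0.17 and 0.12 in Rrp6 and 1.05 and 1.21 in Dis3. That of Act5C was 0.89 and 0.96 in Mtr3, 1.43 and 1.34 in Rrp6 and 1.19 and 1.18 in Dis3. The part of these controls in the likeness was not tested.

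**Figure D5:**
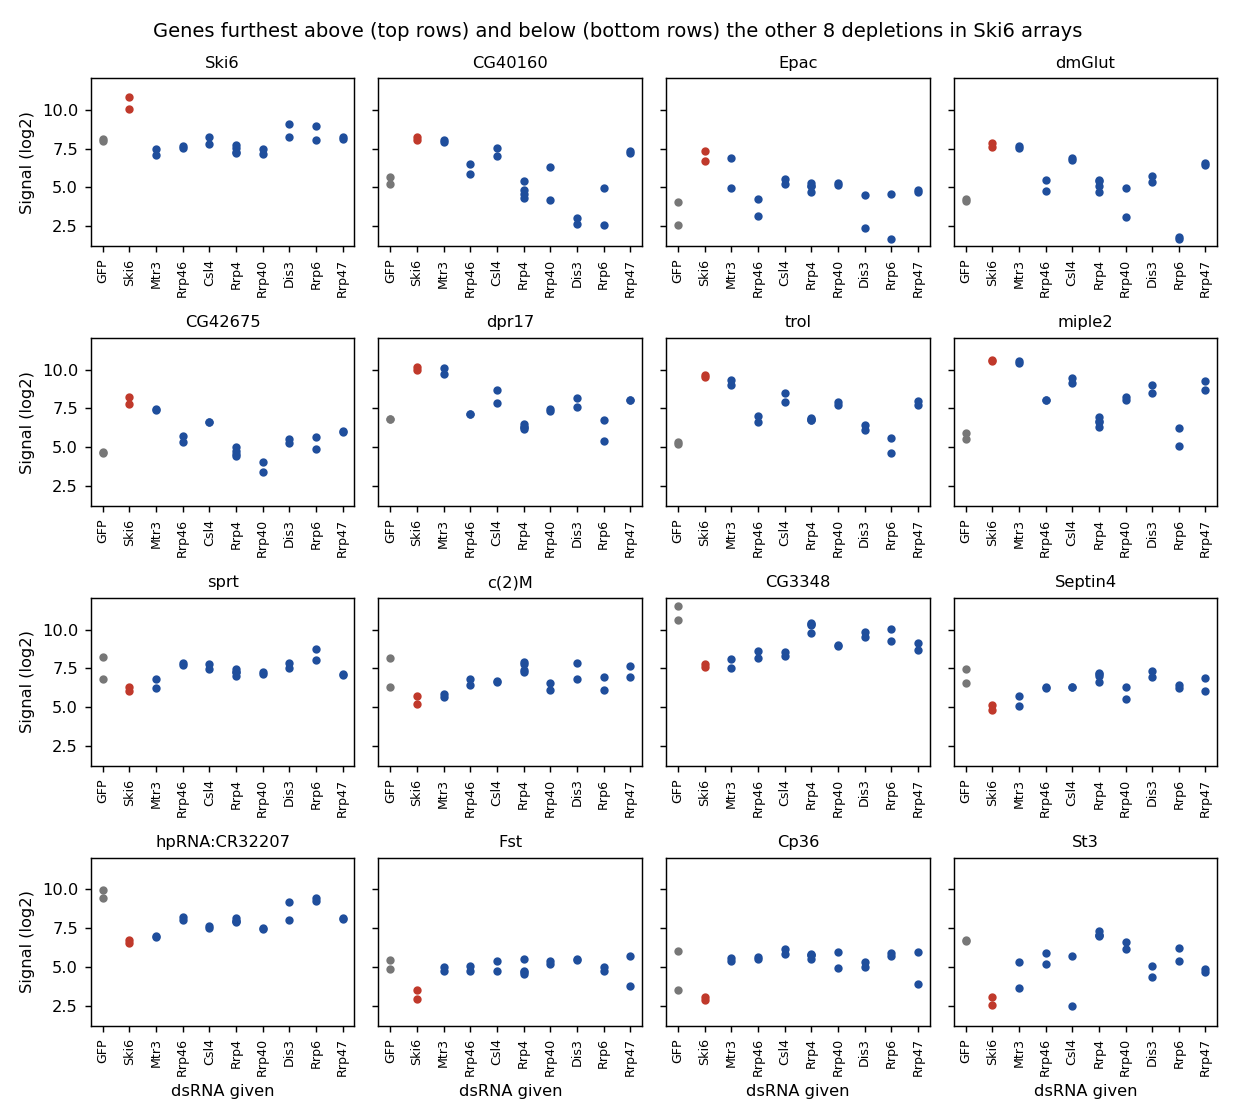
Log2 signal (y) on every array of each group (x; GFP grey, Ski6 red, other depletions blue) for the 8 genes furthest above and the 8 furthest below the other 8 depletions in the Ski6 arrays. In most panels the Mtr3 arrays lie next to the Ski6 arrays, as for miple2, at 10.55 and 10.46 beside 10.56 and 10.62.

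The same lists were counted against the other 8 depletions, where 5.75% of all genes were called. Of the 12 genes of glycolysis and gluconeogenesis, 7 were also below the other 8 depletions and none above, with a median of -0.37 against -0.01 over all genes. They were Pepck2 (-2.47 ± 0.38), Pfk (adjusted p = 0.0011), Pepck1 (-0.93 ± 0.17), Pgi, Tpi, Gapdh1 and Eno. The calls of Pepck2 and Pepck1 were lost without Ski6 1 (adjusted p = 0.11 and 0.30) and that of Pfk without Ski6 2 (0.07). Of the 12 matrix genes, trol, Pxn, LanB2 (0.73 ± 0.20) and SPARC (0.39 ± 0.06) were above the other depletions and Tsp was below them (-1.30 ± 0.36). LanB2 and Tsp lost their calls without either Ski6 array, and SPARC lost its call under median centring, at 0.12 (adjusted p = 0.57). Of the 6 antimicrobial peptides, AttD (0.99 ± 0.22) and DptB (1.18 ± 0.31) were above the other depletions, and neither was called without Ski6 1. None of the 29 replication genes and none of the 18 genes of mitosis differed from the other depletions at an adjusted p under 0.05 (limma), and 4 of each differed at an unadjusted p under 0.05. Their median differences were 0.00 and -0.06, and with 5.75% of all genes called the counts of 0 set neither list apart.

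A few genes left the other depletions in the direction opposite to their change from GFP. CG33099 was 1.56 ± 0.20 above GFP and -0.66 ± 0.15 from the other 8. CG33307 was -1.56 ± 0.22 from GFP and 0.62 ± 0.16 above the other 8, and Kank, an ankyrin-repeat protein gene, was -1.10 ± 0.17 and 0.58 ± 0.13. These 3 were named after their values were seen, and in each the change from GFP was smaller in the Ski6 arrays than the mean over the other depletions, which was 2.22, -2.18 and -1.68.

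The last comparison set the Ski6 arrays against the depletions of the 2 other ring subunits targeted in the study, Mtr3 and Rrp46, with 2 arrays each. Of 9385 probe sets, 31 (0.33%) differed at a limma adjusted p under 0.05, 23 higher (0.245%) and 8 lower (0.0852%), against 638 at an unadjusted p under 0.05. As genes, 18 were higher (0.249%) and 8 lower (0.111%), or 0.36% together. The Ski6 gene was 3.00 ± 0.27 above the ring arrays (adjusted p = 2.0e-05). The homeobox gene btn was 1.60 ± 0.13 above (adjusted p = 7.4e-06), reading 11.37 and 11.23 in Ski6, 11.10 and 11.04 in Mtr3 and 8.40 and 8.25 in Rrp46. The Mtr3 arrays thus stood next to the Ski6 arrays and the Rrp46 arrays stood apart. Trol (1.62 ± 0.23), CG9416 (1.56 ± 0.24), CG42675 (1.53 ± 0.28) and nvy (1.34 ± 0.20), a transcriptional corepressor gene of the ETO family, were the other genes furthest above. Their means in Ski6, Mtr3 and Rrp46 were 9.61, 9.17 and 6.81 for trol and 11.11, 10.82 and 8.28 for CG9416. For CG42675 they were 8.02, 7.45 and 5.54, and for nvy 9.38, 9.14 and 6.93. In each of these genes too, Mtr3 lay near Ski6 and Rrp46 lay far below.

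Among the genes lower than in the ring depletions, CG33099 (-0.96 ± 0.17), CG42807 (-0.93 ± 0.18) and rgr (-0.87 ± 0.17) came first, and under median centring none of the 6 lower genes named here was called (adjusted p from 0.074 to 0.62). PI31, a proteasome regulator, was -0.53 ± 0.11, the mitochondrial chaperone Hsc70-5 was -0.47 ± 0.08 and Swim was -0.46 ± 0.09. In all 6 the Mtr3 mean lay between the Ski6 and the Rrp46 mean. For Hsc70-5 the means were 11.49 in Ski6, 11.61 in Mtr3 and 12.31 in Rrp46. CG42807 read 10.24 and 10.56 in Ski6, 10.76 and 11.04 in Mtr3, 11.68 and 11.82 in Rrp46 and 6.99 and 6.87 in GFP. It was thus far above the control in all 3 ring depletions and least so in Ski6. Of the 11 genes named in this comparison besides Ski6, btn alone kept its call without either Ski6 array, and the other 10 had adjusted p from 0.086 to 0.90. Without either Ski6 array 5 probe sets were called.

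The 3 ring depletions share the GFP arrays as their control, so their changes from it are set side by side only. For SerT the change from GFP was 5.55 in Ski6, 5.38 in Mtr3 and 3.13 in Rrp46, and for Pxn it was 4.46, 4.29 and 2.96. For PPO1 it was 3.79, 3.67 and 6.00, and for AGO3 3.85, 4.70 and 4.44. For Pfk the change was -3.22, -3.41 and -2.21, and for Hml it was -1.97, -2.07 and -0.28. For PolA1 it was 2.07, 1.88 and 1.74.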

How the data were processed

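The deposited values are linear signal intensities of the 22 arrays, made by the authors with GCOS, Affymetrix's scanner software, per the submitters' processing notes; the scaling is not given in the sources used here. Of 18952 probe sets, 183 control probe sets were set aside, and the other 18769 were quantile normalized over all 22 arrays, floored at the 10th percentile (an intensity of 3.23) and taken to log2. The 9385 probe sets whose mean log2 signal reached the median (4.67) were tested. Limma 3.58.1 in R 4.3.3 fitted 10 group means with a trended prior (12 residual degrees of freedom), and p-values were adjusted over all tested probe sets by Benjamini-Hochberg, with 0.05 as the limit for a call. The number of arrays limits the precision.

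Probe sets were named from the platform annotation, updated to current RefSeq symbols by Entrez gene ID. Of the 18769, 13647 had 1 symbol, 402 several and 4720 none. A gene is represented by its brightest probe set, and "measured" means that this probe set was tested. The members and the gene lists were chosen with earlier results of these data known. The genes named were the 15 furthest each way from GFP, 8 each way from the other depletions and 6 each way from Mtr3 and Rrp46, all called and with the arrays compared not overlapping (for the other depletions, their group means). To these were added the exosome genes, targeted genes, and the 3 highest and 3 lowest members of the lists described.

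In data simulated for Ski6 against GFP on the same 9385 probe sets, 50 probe sets were changed at each size: the fit found 44 of those raised and 35 of those lowered 4-fold, 32 and 25 of those changed 2-fold, and called 7 of 9185 that had not been changed. The simulated noise was normal and independent, with the same spread in every group and few probe sets changed. In the real arrays 22.7% of probe sets were called, and the median absolute log2 difference within a group ran from 0.123 (Rrp46) to 0.435 (Rrp6). The simulated count of false calls therefore need not hold for them. Deviations of the GFP and Ski6 arrays of the same number correlated at -0.05, so the numbers were not taken as pairs. Alternatives covered the normalization, filter, floor, variance model, arrays entering the fit, a replicate block and each array left out. A group left with 1 array was assumed to vary like the others. No sequences are shown, since no table of them was used here.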

Additional observations from a re-analysis of the deposited data

Results flagged for a closer look

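The Ski6 arrays differed from the mean of the other 8 depletions at 511 probe sets, and from the Mtr3 and Rrp46 depletions at 31, by a direct test of the difference between depletions. These are the differences between groups that were marked for a closer look.

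The 18S ribosomal RNA control, which is outside the expression measurements, lay 8.44 above the array median in Ski6 1 and 8.35 above it in Ski6 2 on the log2 scale, higher than both GFP arrays (2.91 and 4.76).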

How the results depend on the processing

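The difference of the Ski6 gene from GFP kept its direction and call under all alternatives, between 2.01 and 2.79 with an array left out and 3.46 with the intensities as deposited. The counts of called probe sets moved more. Against GFP (2135) the count was 6896 with the intensities as deposited (6784 higher, 112 lower, with the median of all probe sets shifted by 1.02), 1403 with only probe sets above the 75th percentile, 3323 without the Csl4, Dis3 and Rrp6 arrays, and 1203 to 2042 with an array left out (1203 without Ski6 1, 1270 without Ski6 2, 1248 without GFP 1). Median centring gave 1770, of which 1136 or 64.2% were higher against 52.7% in the reported fit. Against the other 8 depletions (511) it was 6076 as deposited (6057 higher, 19 lower, shift 0.63), 218 with median centring (138 higher, 80 lower), 2079 with array weights, 316 without the Rrp4 arrays, 898 without Csl4, Dis3 and Rrp6, and 75 to 583 with an array left out. Against Mtr3 and Rrp46 (31) it was 1621 as deposited (1620 higher, 1 lower, shift 0.45), 13 with median centring (12 higher, 1 lower), 14 with all probe sets tested, 16 above the 75th percentile, 18 without an intensity trend, 268 with array weights, 13 without Rrp4, 107 without Csl4, Dis3 and Rrp6, 130 with only the groups compared, and 5 to 37 with an array left out. With the replicate number as a block the 3 counts were 1834, 354 and 13. As deposited, these turned upward against GFP: CycB (0.093), yellow-f (0.19), Pgk (0.25), Eno (0.11) and SerRS (0.094). The cause of these movements was not tested. With 2 arrays a group, changes near 2-fold were often missed in the simulated data.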
